A study of Mus musculus with 9 samples.

Results

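The 37 genes listed here as interferon response genes were followed across whole mouse skin of 4 genotypes. A gene was kept where a probe set of the array named it alone, which held for 33 of the 37 among 12393 genes measured in all. For Ifi44 and Xaf1 no probe set used here named the gene alone, and Isg15 and Tgtp1 shared theirs with another gene, so that these 4 are not analysed here. The members fell into 6 roles: 5 signal transducers and transcription factors, 14 antiviral effectors, 3 nucleic acid sensors, 6 interferon-induced GTPases, 2 immunoproteasome subunits and 3 feedback inhibitors.

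Total RNA came from 30 mg of skin of mice aged 30 days on a mixed C57BL, DBA and FVB background, and each of 9 arrays received 1 pool. Controls, called LC, had 3 pools, and the transgenic lines L60, L84 and LA had 2 each. The series title names constitutively active Akt and impaired BMP signalling. The labels used here do not say which promoter drives the transgene, which cells carry it, how the lines differ or how many mice made up a pool, and p-values therefore measure only the spread between pools. Values are scores that have mean 0 and SD 1 over the 9 arrays for each probe set. A difference is counted in these SDs and carries neither a level nor a fold, and whether the skin holds the cell types its label implies cannot be read from scores. In whole tissue, fewer cells of a type and less RNA per cell cannot be told apart.

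Interferons are secreted proteins that warn cells of infection, and skin cells of many kinds respond to them. Type I interferons act through the kinases Jak1 and Tyk2 to form a complex, with Stat2 and Irf9 among its parts, that binds the interferon-stimulated response element (ISRE) of antiviral genes. Interferon gamma acts through Jak1 and Jak2, drives genes through the gamma-activated site (GAS), and is known for inducing Irf1, the GTPases that attack pathogen vacuoles, and the immunoproteasome.

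The promoters of 7 members are shown because they carry the elements just named, or, for Irf9, because it is the member that passed the test described below. Each is the RefSeq window of 300 bases on GRCm38.p6, from 250 bases before an annotated start to 50 after it, written 5′ to 3′ on the gene's strand. Capitals mark matches, on either strand, to the letters searched for as an ISRE (GAAA, any 2 bases, GAAA) or as a GAS (TTCNNNGAA). Irf9 lies at chr14:55603735-55604034 (plus strand), Irf1 at chr11:53769764-53770063 (plus strand), Gbp2 at chr3:142620413-142620712 (plus strand), Igtp at chr11:58199306-58199605 (plus strand), Irgm1 at chr11:48871371-48871670 (minus strand), Ifit1 at chr19:34640639-34640938 (plus strand) and Ifit3 at chr19:34583279-34583578 (plus strand). The table holds a further window for Irf9 and for Irf1, not printed.
Irf9: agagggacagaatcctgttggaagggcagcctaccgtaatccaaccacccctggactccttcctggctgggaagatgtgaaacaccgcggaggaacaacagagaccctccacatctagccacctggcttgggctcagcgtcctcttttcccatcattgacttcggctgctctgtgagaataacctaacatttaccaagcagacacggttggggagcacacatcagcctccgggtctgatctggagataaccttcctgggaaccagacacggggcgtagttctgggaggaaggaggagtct
Irf1: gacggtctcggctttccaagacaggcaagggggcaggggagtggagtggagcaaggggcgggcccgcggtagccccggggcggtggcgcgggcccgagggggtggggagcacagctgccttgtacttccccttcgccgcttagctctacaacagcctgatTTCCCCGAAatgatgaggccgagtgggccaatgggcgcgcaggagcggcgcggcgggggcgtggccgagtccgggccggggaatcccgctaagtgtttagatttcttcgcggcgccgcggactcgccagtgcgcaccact
Gbp2: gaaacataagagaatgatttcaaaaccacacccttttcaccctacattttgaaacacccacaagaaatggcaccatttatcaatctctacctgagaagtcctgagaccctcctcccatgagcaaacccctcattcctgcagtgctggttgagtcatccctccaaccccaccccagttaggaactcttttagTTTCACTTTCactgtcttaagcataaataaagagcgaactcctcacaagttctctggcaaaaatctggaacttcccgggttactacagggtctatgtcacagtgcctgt
Igtp: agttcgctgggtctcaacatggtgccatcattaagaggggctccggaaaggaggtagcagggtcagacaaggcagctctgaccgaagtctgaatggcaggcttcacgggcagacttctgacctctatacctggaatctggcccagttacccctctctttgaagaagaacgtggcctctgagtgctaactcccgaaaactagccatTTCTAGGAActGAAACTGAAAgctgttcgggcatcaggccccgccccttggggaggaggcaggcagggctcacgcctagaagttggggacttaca
Irgm1: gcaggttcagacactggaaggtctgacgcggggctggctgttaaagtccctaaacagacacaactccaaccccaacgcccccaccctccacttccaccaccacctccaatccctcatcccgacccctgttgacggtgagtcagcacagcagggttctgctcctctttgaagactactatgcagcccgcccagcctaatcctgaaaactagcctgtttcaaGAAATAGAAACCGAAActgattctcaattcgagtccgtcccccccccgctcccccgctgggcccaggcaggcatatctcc
Ifit1: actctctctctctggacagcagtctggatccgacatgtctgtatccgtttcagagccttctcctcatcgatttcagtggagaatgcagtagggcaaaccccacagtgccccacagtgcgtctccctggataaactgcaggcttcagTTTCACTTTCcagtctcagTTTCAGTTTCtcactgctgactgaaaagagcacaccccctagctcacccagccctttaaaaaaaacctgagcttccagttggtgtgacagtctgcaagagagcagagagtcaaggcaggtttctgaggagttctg
Ifit3: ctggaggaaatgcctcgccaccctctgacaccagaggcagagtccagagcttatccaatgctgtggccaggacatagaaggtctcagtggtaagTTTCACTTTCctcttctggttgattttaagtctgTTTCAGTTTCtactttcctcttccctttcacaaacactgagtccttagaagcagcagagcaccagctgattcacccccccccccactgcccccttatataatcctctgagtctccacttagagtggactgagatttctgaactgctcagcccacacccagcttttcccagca

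Of the 33 measured members 26 had a promoter window in the RefSeq table. A match to the ISRE letters stood in 13 of them (50%), against 3.84% of the 9887 array genes with a window and 3.44% of all 32851 windows. A match to the GAS letters stood in 9 members (34.6%), against 8.45% of array genes and 8.3% of all windows. The motifs can overlap each other and themselves, as in Bst2, whose GAS match at -136 to -128 runs into its ISRE matches at -130 to -121 and -124 to -115 (the first base of the transcript is 1). The GTPases Gbp2, Gbp3, Igtp and Irgm1 held ISRE matches between -59 and -15, close to the start. Those of Ifit1 and Ifit3 lay farther out, at -104 and -85 and at -156 and -122. Further ISRE matches near a start were those of Trim30a (-36 to -27 and 3 to 12), Eif2ak2 (19 to 28) and Ifih1 (33 to 42). In Igtp the GAS match ended at -37 and the ISRE match began at -34. Irf1 held a GAS match at -90 to -82. The windows of Irf9, Irf7, Oasl2, Ifi47, Psmb9, Psmb10 and Cmpk2 held neither run of letters. Of members with a window, 13 had all L84 and LA arrays above all LC arrays, as given below. ISRE matches stood in 6 and GAS matches in 4 of these, against 7 and 5 of the other 13. A match describes letters and not a bound site.

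**Figure D1:**
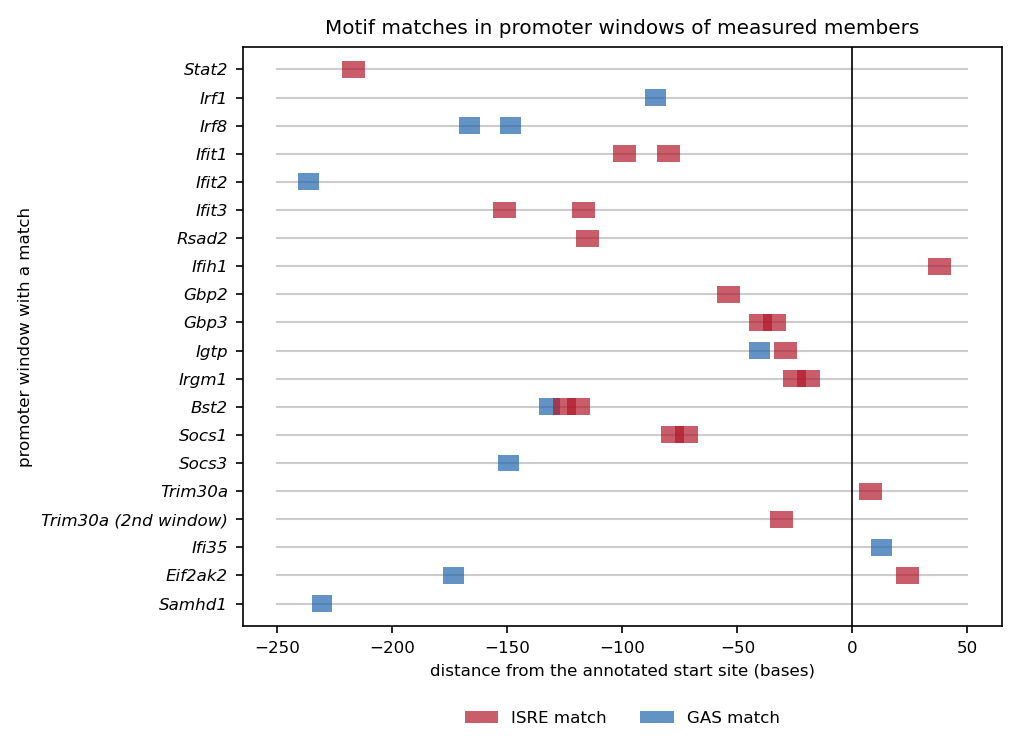
Each grey line is a promoter window of a measured member with at least 1 match, against distance from the annotated start in bases, with ISRE matches in red and GAS matches in blue. The 4 GTPases have ISRE matches between -59 and -15, while Ifit1 and Ifit3 have theirs between -156 and -76. Trim30a, Eif2ak2 and Ifih1 also have ISRE matches close to the start or after it.

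Some facts of the arrays bear on every value below. Probe sets for 18S ribosomal RNA had mean scores of 1.13 on LC 1, 2.09 on L60 1 and 0.339 on L84 1, and of -0.642 to -0.528 elsewhere. Xist, an RNA of the inactive X chromosome in female cells, was low on the first array of each genotype (-1.06 to -0.822) and between 0.077 and 1.49 on the rest. The widest spread of scores over genes was that of LA 2 (SD 1.2), followed by L84 1 (SD 1.13). Among LC arrays, 8 of the 33 members scored higher on LC 2 than on LC 1 and 7 on LC 3 than on LC 1, against 47.5% and 52.4% of all genes. Of the 50 probe sets behind the members 16 held tied scores. Ties on both arrays of a line touched probe sets of 4 members (Irf8, Zbp1, Samhd1 and Cmpk2), none of them called. Of the 12 members with several probe sets, 6 had probe sets of opposite sign in L60, 6 in L84 and 3 in LA.

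Across the genotypes, LC had the lowest mean score for 19 of 33 members and the highest for 0, where it was lowest for 27% and highest for 20.1% of all genes. LA had the highest mean for 19 members, against 37.9% of all genes. The median of the members' scores was -0.225, -0.802 and -0.757 on the LC arrays, -0.26 and -0.0299 in L60, 0.0494 and 0.435 in L84, and 0.69 and 0.656 in LA. The LA arrays stood highest and LC 2 and LC 3 lowest, while LC 1 and L60 1 were alike. For 10 members (Irf9, Irf1, Usp18, Gbp2, Gbp3, Irgm1, Psmb9, Psmb10, Trim30a and Ifi47) the mean scores stood in the order LC, L60, L84 and LA from low to high, which 9.19% of all genes shared. Of these Irf9, Usp18 and Psmb9 had L60 arrays clear of LC, and 0 of the 10 differed by the test between any pair of lines. The lists were not tested as sets.

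**Figure D2:**
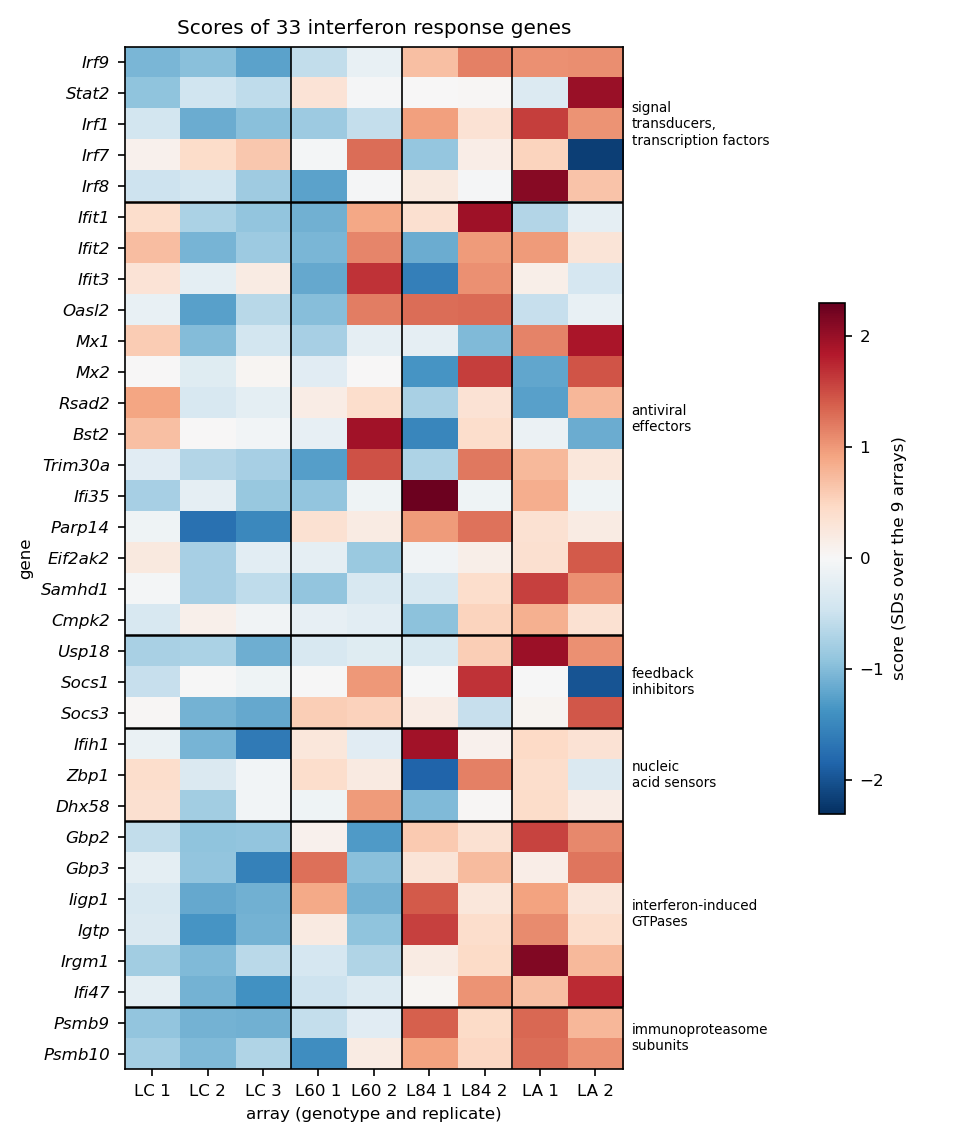
Scores of the 33 measured members, in SDs over the 9 arrays, with genes in rows grouped by role and arrays in columns grouped by genotype. GTPases and immunoproteasome subunits are below 0 on all LC arrays and above 0 on all L84 and LA arrays, while many antiviral effectors differ between the arrays of 1 genotype.

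The comparison of each line with LC asked where the line's skin differed from that of controls, and all of these share the LC arrays. Genes count as called where limma's linear model without variance moderation gave an adjusted p (Benjamini-Hochberg, over the 12393 genes) under 0.05. In L60 0 members and 0% of all genes were called (2 members had an unadjusted p under 0.05). With limma's moderated variance the count there was also 0. In L84 1 of 33 members was called, Irf9, beside 0.565% of all genes. In LA it was again Irf9, 1 of 33 beside 1.8% of all genes. Without LA 2, LC 2 or LC 3 the count in LA was 0. A test for any difference among the 4 genotypes also called Irf9 as the only member, beside 0.734% of all genes. Its adjusted p was 0.042 by an ordinary F test of the same model, without variance moderation. When 1 array was left out, that call was lost except without L84 2. The median difference over the members was 0.436 in L60, 0.971 in L84 and 1.37 in LA, beside 0.0777, 0.00308 and 0.247 over all genes. Without L60 2 the L60 median was 0.0621.

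The line arrays lay wholly above the LC arrays for 6 members in L60, 17 in L84 and 22 in LA. The same held for 14.4%, 13.8% and 27.8% of all genes. They lay wholly below for 0, 0 and 1 members, against 10.8%, 14.7% and 21% of all genes. The member below was Bst2 in LA. Irf9, Stat2, Usp18, Psmb9 and Parp14 (5 of 33) lay above LC in all 3 lines, as did 3.7% of all genes. In both L84 and LA 16 of 33 members lay above LC, as did 8.86% of all genes: these 5 and Irf1, Irf8, Ifih1, Gbp2, Gbp3, Iigp1, Igtp, Irgm1, Psmb10, Ifi35 and Ifi47. Since the lines share the LC arrays, these joint counts are not independent.

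**Figure D3:**
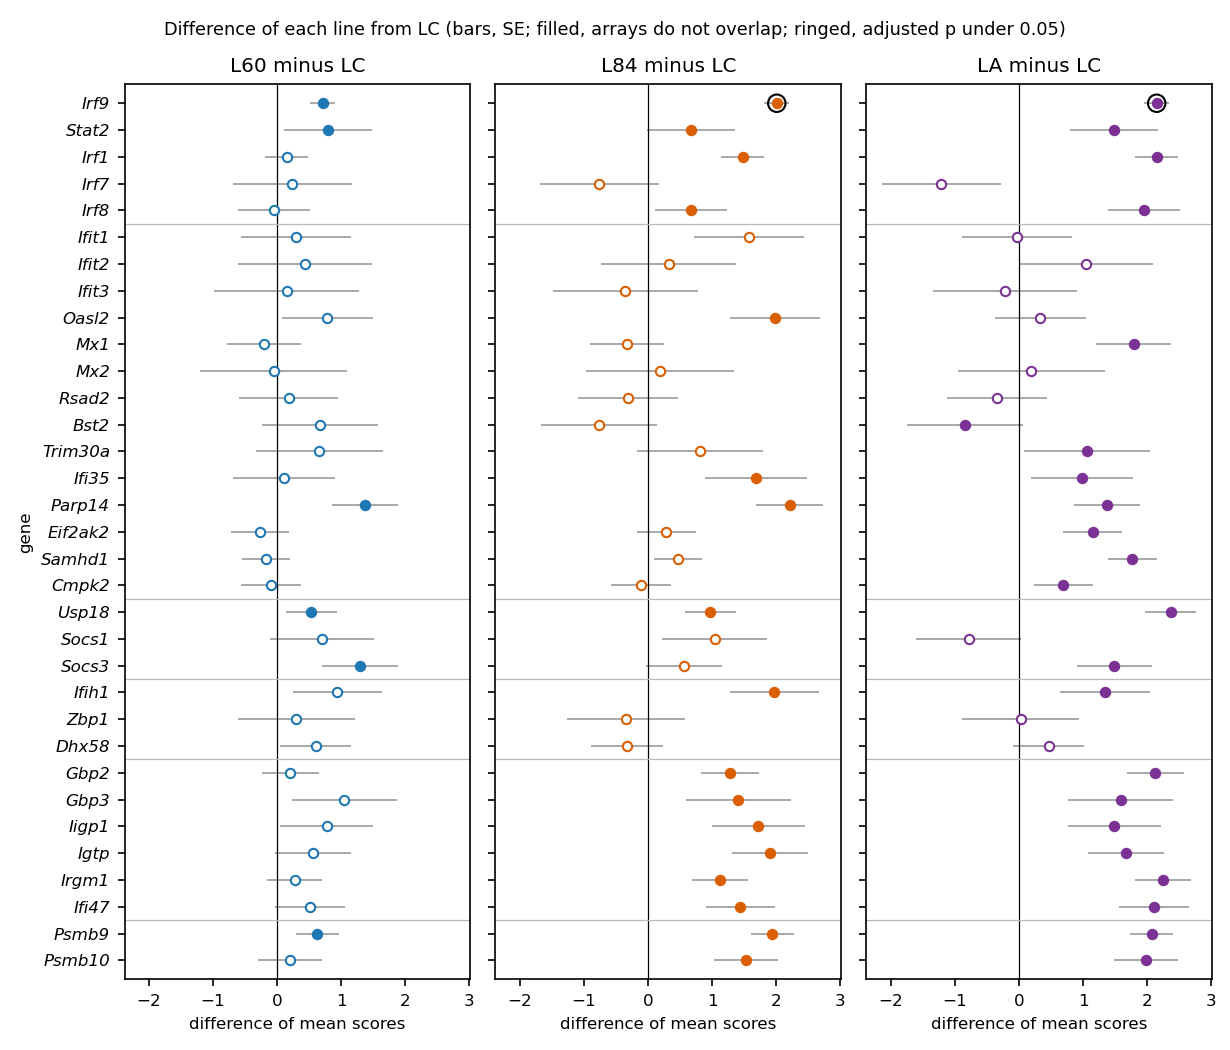
Difference of each line's mean score from LC for the 33 members, with bars of 1 SE, filled points where the arrays of line and control do not overlap and a ring where the adjusted p is under 0.05. Irf9 is ringed in L84 and LA, and all 6 GTPases and both immunoproteasome subunits are filled in these lines.

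Irf9, the DNA-binding partner of Stat2, scored -1.05, -0.964 and -1.23 in LC and -0.57 and -0.172 in L60. It scored 0.691 and 1.16 in L84 and 1.06 and 1.08 in LA. LC arrays were lowest, L60 arrays lay between, and L84 and LA arrays were highest and overlapped each other. It rose by 2.01 ± 0.193 (SE; adjusted p = 0.0344 by limma's test) in L84 and by 2.15 ± 0.193 (adjusted p = 0.0169) in LA. In L60 it differed by 0.711 ± 0.193 (adjusted p = 0.849). The size of these differences held while the calls did not. Leaving out any 1 array gave 1.77 to 2.24 in L84 with adjusted p above the threshold each time, from 0.0578 without L84 2 to 0.183 without LC 3. In LA the difference was 2.08 to 2.21, and the call was lost without LA 1, LA 2, LC 1, LC 2 or LC 3 (adjusted p = 0.0619, 0.108, 0.0601, 0.0958 and 0.0958). Within the arrays high in 18S, L84 1 exceeded LC 1 by 1.75, and among the others L84 2 exceeded the mean of LC 2 and LC 3 by 2.25. Both signs follow from the L84 arrays lying wholly above LC.

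Its partner Stat2 was not called. It differed by 0.794 ± 0.685 in L60, 0.671 in L84 and 1.48 in LA, and LA 2 stood alone at 1.98 against -0.32 on LA 1. Without LA 1 its LA difference of 2.63 was called (adjusted p = 0.0396 by limma's test). Its probe sets had unlike scores on LA 1, 0.753 and -1.39.

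Irf1, a transcription factor that interferon gamma induces, scored -0.413, -1.15 and -0.961 in LC and -0.832 and -0.549 in L60. It scored 0.946 and 0.338 in L84 and 1.59 and 1.03 in LA. L60 lay within the LC range and both other lines lay above it. Irf1 differed by 1.48 in L84 (adjusted p = 0.203) and by 2.15 ± 0.334 in LA (adjusted p = 0.0582 by limma's test), close to the threshold without passing it.

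Irf8, a factor of myeloid cells that interferon gamma also induces, was highest in LA (2.09 and 0.656) and lay between -0.814 and -0.421 in LC. Irf7, which amplifies the production of type I interferons, ran the other way. It scored 0.104, 0.43 and 0.62 in LC and -2.16 on LA 2, but 0.508 on LA 1, and it differed by -1.21 ± 0.925 in LA (adjusted p = 0.479).

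The interferon-induced GTPases, which act on the vacuoles of intracellular pathogens, lay above LC in L84 and in LA for 6 of 6 members. The same held for 13.8% and 27.8% of all genes. Their median differences were 1.42 and 1.89, and none was called. In L60 6 of 6 overlapped with LC, and the median difference was 0.538. Mx1 and Mx2, also GTPases, were counted with the antiviral effectors. Of these Mx1 overlapped with LC in L84, and Mx2 overlapped in L84 and in LA. Irgm1 scored -0.793, -1.01 and -0.62 in LC and -0.382 and -0.691 in L60. It scored 0.184 and 0.435 in L84 and 2.14 and 0.741 in LA, where it differed by 2.25 ± 0.434 (adjusted p = 0.0801). LA 1 was far above LA 2.

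Igtp scored -0.324, -1.35 and -1.09 in LC and 1.58 and 0.405 in L84, a difference of 1.91 ± 0.593 (adjusted p = 0.332). In LA it stood at 1.09 and 0.411. Gbp2, a guanylate-binding protein, scored -0.57, -0.928 and -0.915 in LC, 0.602 and 0.353 in L84 and 1.55 and 1.11 in LA, and its 2 probe sets differed in the same direction in each line. Ifi47 differed by 1.44 in L84 and 2.11 in LA, Iigp1 by 1.72 and 1.49, and Gbp3 by 1.41 and 1.59. In L60 the arrays disagreed for this group, with 5 of 6 genes lower on L60 2 than on L60 1. Gbp3, at 1.26 and -0.961, and Iigp1, at 0.869 and -1.08, were the widest apart. L84 exceeded LC both among the arrays high in 18S (median 1.07, 6 of 6 above 0) and among the others (median 1.51, 6 of 6). All L84 arrays lay above all LC arrays for these genes, so these signs were fixed in advance and only the sizes are informative.

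The immunoproteasome subunits, which replace the standard catalytic subunits and alter the peptides cut for presentation, both lay above LC in L84 and LA. Psmb9 scored -0.899, -1.1 and -1.1 in LC and -0.553 and -0.253 in L60. It scored 1.38 and 0.439 in L84 and 1.32 and 0.769 in LA. All line arrays lay above all LC arrays. The differences were 0.628 ± 0.332 in L60 (adjusted p = 1), 1.94 ± 0.332 in L84 (adjusted p = 0.139) and 2.07 ± 0.332 in LA (adjusted p = 0.0608 by limma's test). Without L84 1 or without L84 2 the LA difference was called (adjusted p = 0.0371 in each). Psmb10 differed by 0.205, 1.53 and 1.99, and in L60 it was split between -1.43 and 0.187. Psmb8, the further subunit of this set, and Tap2, a part of the peptide transporter, came from the fixed list of other interferon-induced genes and differed by 1.81 and 1.8 in L84 and by 1.99 and 1.64 in LA, without a call.

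Of 14 antiviral effectors measured, 3 lay above LC in L84 (Oasl2, Ifi35 and Parp14), near the 13.8% of all genes. In LA 7 lay above (Mx1, Trim30a, Ifi35, Parp14, Eif2ak2, Samhd1 and Cmpk2) and 1 below, beside 27.8% and 21% of all genes. The median difference was 0.164 in L60, 0.305 in L84 and 0.836 in LA, and 0 were called in any line (1, 2 and 3 had an unadjusted p under 0.05, and limma's moderated variance called 0 members in all).

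Arrays of 1 line often disagreed. Ifit1, which binds viral RNA, scored 0.407, -0.72 and -0.907 in LC, -1.11 and 0.896 in L60, 0.364 and 1.95 in L84 and -0.681 and -0.2 in LA. Ifit3, of the same family, scored 0.313, -0.218 and 0.185 in LC, -1.17 and 1.65 in L60, -1.57 and 1.05 in L84 and 0.132 and -0.378 in LA. In L60 and L84 the arrays of a line were farther apart than any pair of LC arrays. Mx2, a dynamin-like GTPase, scored -1.35 and 1.59 in L84 and -1.2 and 1.44 in LA, while its LC arrays lay between -0.278 and 0.0522. Bst2, the tether that holds budding virus at the cell surface, scored 1.94 on L60 2 and -1.5 on L84 1. Rsad2, an antiviral radical enzyme, had differences of 0.179, -0.313 and -0.34, with an SE of 0.777.

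Of the 14 effectors 11 scored higher on L60 2 than on L60 1 and 12 higher on L84 2 than on L84 1, where 50% and 46.5% of all genes did. In LA 6 of 14 were higher on LA 2. The L84 difference of the group was -0.512 (median) between L84 1 and LC 1, the arrays high in 18S, and 1.06 between L84 2 and the other LC arrays. For L60 the same medians were -0.84 and 1.18. The group's median thus had opposite signs in the 2 sets of arrays. The GTPase medians were above 0 in both sets for L84 and for L60 (0.598 and 0.2), and those of the immunoproteasome were above 0 in both for L84 (1.99 and 1.43) but not for L60 (-0.155 and 0.942). For both of these groups the L84 signs follow from the L84 arrays lying wholly above LC. The median over all 33 members also turned sign in L60 (-0.148 and 0.699). Marker genes of macrophages and dendritic cells moved with these arrays: 12 of 14 were higher on L60 2 than on L60 1 and 12 of 14 on L84 2 than on L84 1. Xist moved with them as well. Their part in the effectors' values was not tested.

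**Figure D4:**
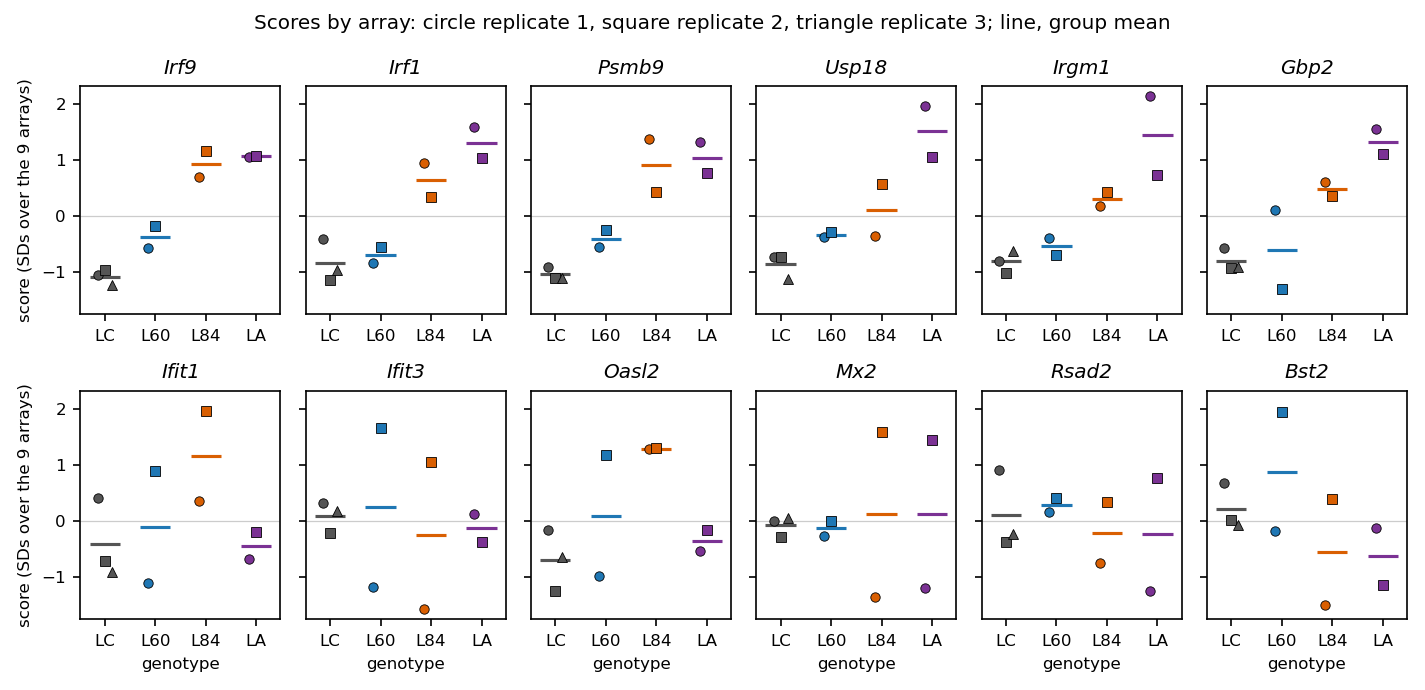
Scores of 12 members on every array, in SDs, by genotype, with circles, squares and triangles for replicates 1, 2 and 3 and lines for group means. In the upper row Irf9, Irf1, Psmb9, Usp18, Irgm1 and Gbp2 are higher in L84 and LA than in LC, and in the lower row Ifit1, Ifit3, Mx2 and Bst2 differ widely between arrays of a line.

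Parp14, an ADP-ribosyltransferase, was the 1 effector that exceeded LC in both sets of arrays in L60. In L84 Oasl2, Ifi35 and Parp14 did so. Parp14 scored -0.0941, -1.72 and -1.49 in LC and was higher on all line arrays, from 0.192 to 1.25. Among the arrays high in 18S and among the others it exceeded LC by 0.442 and 1.8 in L60 and by 1.07 and 2.85 in L84. These signs follow from its line arrays lying wholly above LC. It differed by 1.37 ± 0.518 in L60 (adjusted p = 1), 2.21 ± 0.518 in L84 (adjusted p = 0.218) and 1.37 in LA. Without LC 1 its L84 difference of 2.71 was called (adjusted p = 0.0316 by limma's test), as was its LA difference of 1.88 (adjusted p = 0.0379). Samhd1, which degrades the nucleotides that viruses need, differed from LC by -0.175, 0.468 and 1.77 in the lines L60, L84 and LA (adjusted p = 0.0972 in LA by limma's test). Its 4 probe sets scored 0.849 to 2.05 on the LA arrays. Like the group, it turned sign between the 2 sets of arrays in L60 (-0.866 and 0.305) and in L84 (-0.338 and 1.06).

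Mx1, another dynamin-like GTPase, was highest on the LA arrays, at 1.15 and 1.87, and differed there by 1.79 ± 0.58 (adjusted p = 0.185). Oasl2, an oligoadenylate synthetase-like protein, was highest in L84, at 1.28 and 1.3, and stood at -0.537 and -0.169 in LA. Ifi35 scored 2.25 on L84 1 and -0.107 on L84 2. Eif2ak2, the kinase that halts translation on double-stranded RNA, differed by -0.265, 0.287 and 1.15, Trim30a by 0.661, 0.816 and 1.06, Cmpk2 by -0.0992, -0.105 and 0.694, and Ifit2 by 0.436, 0.323 and 1.05.

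Some members are neighbours on a chromosome, and whether their patterns differ was not tested. Rsad2 and Cmpk2 lie next to each other on chromosome 12, and in LA they differed from LC by -0.34 and 0.694. Probe sets of Rsad2 disagreed there (1.28, -1.11 and -1.19), while those of Cmpk2 differed by 0.247 and 1.14. Ifit2 and Ifit3 lie side by side on chromosome 19. In LA they differed from LC by 1.05 and -0.216, with SEs of 1.05 and 1.13, and both overlapped with LC. On chromosome 3, Gbp3 and Gbp2, with 1 protein-coding gene between them, were both above LC in L84 and LA.

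The nucleic acid sensors, which detect foreign RNA or DNA inside cells, differed among themselves. Ifih1, a sensor of long double-stranded RNA, scored -0.149, -1.06 and -1.62 in LC, 1.94 and 0.107 in L84 and 0.464 and 0.331 in LA. It differed by 1.97 ± 0.698 in L84 (adjusted p = 0.382) and 1.34 ± 0.698 in LA (adjusted p = 0.336). Zbp1, a sensor of Z-form nucleic acids, and Dhx58, a regulator of RNA sensing, overlapped with LC in all 3 lines. Zbp1 was split between -1.83 and 1.15 in L84, and its LA difference of 0.0294 turned sign when array medians were set to 0. Dhx58 differed by 0.605, -0.329 and 0.465.

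Of the feedback inhibitors, Usp18, which blocks the type I receptor and removes Isg15 from proteins, scored -0.737, -0.727 and -1.12 in LC and -0.375 and -0.286 in L60. It scored -0.355 and 0.575 in L84 and 1.97 and 1.06 in LA. All line arrays lay above all LC arrays, and the differences were 0.531 in L60, 0.971 ± 0.398 in L84 (adjusted p = 0.432) and 2.37 ± 0.398 in LA (adjusted p = 0.0654 by limma's test). Socs3, an inhibitor of Jak kinases, differed by 1.29 ± 0.59 in L60 (adjusted p = 1), 0.563 in L84 and 1.49 in LA. Its LC arrays were split between 0.0274 and -1.08 to -1.18. Socs1, a close relative, scored 1.67 on L84 2 and -1.98 on LA 2 and differed from LC by 0.702, 1.04 and -0.785.

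Between the lines 0 members were called. For L84 against L60 11 members lay wholly above and 1 below, beside 12% and 17.5% of all genes (0.113% of genes called, and 3 members with an unadjusted p under 0.05). For LA against L60 15 lay above and 0 below, beside 26.8% and 23.7% (0.629% called, and 12 members with an unadjusted p under 0.05). For LA against L84 10 lay above and 3 below, beside 20% and 13.6% (0.0161% called, and 3 members with an unadjusted p under 0.05). Limma's moderated variance also called 0 members here. Irf9 differed between LA and L60 by 1.44 ± 0.212 (adjusted p = 0.0881) and between L84 and L60 by 1.3 ± 0.212 (adjusted p = 0.229). Irf1 differed by 2 between LA and L60 (adjusted p = 0.114), and Usp18 and Mx1 by 1.4 and 2.12 between LA and L84 (adjusted p = 0.408 and 0.396).

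Other genes of the pathway were taken from fixed lists. Of 14 interferon ligands and receptor chains measured, 0 were called in any line, with 1, 1 and 5 at an unadjusted p under 0.05 in L60, L84 and LA. In LA 9 of 14 lay above LC, beside 27.8% of all genes, with a median difference of 1.27. On LA 2, the array of widest scores, 9 of 14 scored higher than on LA 1 (median 0.614), beside 43.1% of all genes. Whether these genes are expressed in the skin cannot be read from scores. Ifng, the gene of interferon gamma, scored -0.571, -1.2 and 0.0998 in LC, 0.0998 and 1.84 in L84 and 0.508 and 0.311 in LA (differences 1.53 and 0.968, adjusted p = 0.565 and 0.53). Ifnb1, a type I ligand, scored 1.39 on L84 2 and 1.76 on LA 2, and its other line arrays lay between -1.34 and -0.045. Ifngr1, the ligand-binding chain of the gamma receptor, was higher on all line arrays (-0.091 to 1.53) than in LC (-1.55 to -0.883) with differences of 1.45, 1.88 and 1.91 (adjusted p = 1, 0.286 and 0.142). Ifnar1, a chain of the type I receptor, differed by 0.681, 1.35 and -0.274.

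In LA 1.8% of all genes were called, a share that stands beside each LA call given next. Of 10 signal regulators 1 was called, Stat3 in LA, where this factor of many cytokines rose by 1.85 ± 0.216 (adjusted p = 0.0329 by limma's test). Of 9 genes of nucleic acid sensing 1 was called, Aim2, a sensor of cytosolic DNA, which rose in LA by 2.44 ± 0.238 (adjusted p = 0.0202) from -1.06, -0.691 and -0.603 in LC to 1.56 and 1.76. Of 35 other interferon-induced genes 15 lay above LC in L84 and 21 in LA, beside 13.8% and 27.8% of all genes, with medians of 0.986 and 1.02. Uba7, the enzyme that activates Isg15 for conjugation, was the 1 of these 35 called in LA (1.37 ± 0.147, adjusted p = 0.0266 by limma's test). Leaving out 1 array took the call from Stat3 (without L60 1, L60 2, LC 1, LC 2 or LC 3) and from Aim2 and Uba7 (without any of these, LA 1 or LA 2), with adjusted p of up to 0.154, 0.127 and 0.141, while the differences stayed between 1.53 and 2.18, 2.31 and 2.54, and 1.36 and 1.4. Cxcl9, a chemokine known for its response to interferon gamma, differed by 1.77 in L84 and 1.92 in LA without a call (adjusted p = 0.24 and 0.108). It and Psmb8 and Tap2 were chosen for mention after their values were seen.

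Markers of other cell types in the skin were read on the same arrays, and their part in the members' values was not tested. Of 14 macrophage and dendritic cell markers 12 lay above LC in LA and 3 in L84, beside 27.8% and 13.8% of all genes, which also hold for the T and NK cell counts. The list's median score per array was -0.687 to -0.562 in LC, -0.815 and 0.787 in L60, -0.951 and 0.545 in L84 and 1.37 and 0.55 in LA. Of the 14 markers 2 were called in LA, beside 1.8% of all genes. They were Cd207, the langerin of Langerhans cells (2.49 ± 0.127, adjusted p = 0.00472 by limma's test), and Cd74, the invariant chain (2.45 ± 0.295, adjusted p = 0.0347). Cd207 was called under 12 of 17 alternatives, among them each that leaves out 1 array, and lost the call with the replicate block (adjusted p = 0.105), with only the arrays of LA and LC (0.067), with moderated variance (0.115), without the 3 arrays high in 18S (0.173) and without the 2 arrays of widest scores (0.0803). Cd74 was called under 6 of 17. Of 15 T and NK cell markers 11 lay above LC in LA and 5 in L84, with 0 called, and the median score was -0.688 to -0.377 in LC, -0.738 and 0.263 in L84 and 0.812 and 0.644 in LA. On L84 1 the GTPases (median 0.446) and immunoproteasome subunits (1.15) stood above every LC array, and so did 3 of 14 macrophage and dendritic cell markers (Itgax 1.31, Cd207 0.198 and Cd74 -0.314) and 7 of 15 T and NK cell markers (Cd3d 2.17, Nkg7 1.26, Cd3g 0.904, Ptprc 0.598, Cd2 0.488, Klrd1 0.212 and Cd3e 0.21), beside 36.4% of all genes. A further 9 and 7 markers of these lists lay below every LC array there, beside 37.2% of all genes, so that both lists were split on this array. Median scores of 6 B and plasma cell, 8 neutrophil and 6 endothelial markers were -0.806 and 0.548, -1.14 and 0.214, and -0.19 and -0.34 on the L84 arrays.

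Hair and epidermal genes differed in the same lines. Each of 9 hair shaft keratins measured lay below LC in all 3 lines, beside 10.8%, 14.7% and 21% of all genes. Their median differences were -1.02, -2.13 and -2.07. In L60 0 were called, and in L84 and LA 9 of 9 were, beside 0.565% and 1.8% of all genes. Of 8 epidermal keratinocyte genes 6 lay above LC and 2 below in L84, beside 13.8% and 14.7% of all genes. In LA 5 lay above and 2 below, beside 27.8% and 21%. Of the 8 genes 2 were called in L84 and 3 in LA. Their median scores were -0.952 to -0.79 in LC and 0.597 to 1 in these lines. Skeletal muscle genes had a median difference of 1.29 in L84 and 0.848 in LA, with 0 of 6 called. How far shifts in the share of skin compartments enter the members' differences was not tested.

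**Figure D5:**
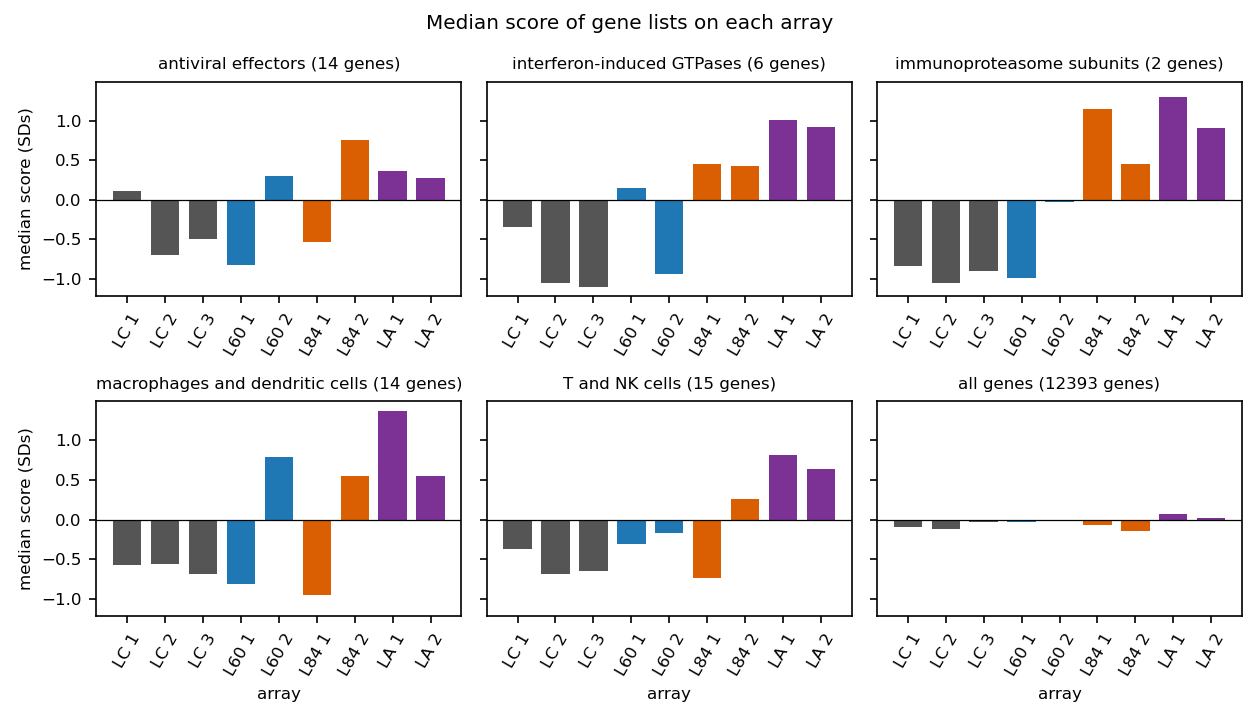
Median score per array, in SDs, of 3 member groups, of 2 marker lists and of all genes, with bars coloured by genotype. The GTPases and immunoproteasome subunits are above 0 on both L84 arrays, while the antiviral effectors and the macrophage markers are below 0 on L84 1 and above 0 on L84 2.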

How the data were processed

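Skin RNA from 9 pools was hybridised to Affymetrix arrays. The submitters' processing notes name RMA, with no version given. What was deposited is a score in which every probe set averages 0 with SD 1 across arrays, as its values show. Whether values were logged first is not given in the sources used here. Of 22690 probe sets 20380 named 1 gene, by the platform annotation, 691 several, 1555 none, and 64 were controls; 20351 matched a current record of GRCm38.p6. A gene's score is the mean over probe sets that name it alone.

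Group means were fitted over all genes with limma 3.58.1 in R 4.3.3 (5 residual degrees of freedom). Variance was not moderated because the standardisation fixes the total variance of each probe set. Arrays do not overlap where every array of a group lies on 1 side of the other group's. The number of arrays limits the precision. The code of the fit was checked on simulated independent values with added shifts. These lack the ties and averaged probe sets of the real scores, so the check does not cover them.

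The members and lists were chosen with earlier results of these data known. Named with differences were called members and, in each role and line, the member of largest difference whose arrays did not overlap with LC. Of each pathway list up to 4 called genes were named, and Ifng, Ifnb1, Ifnar1 and Ifngr1 whatever their values. Other members are given by their values, some with a difference and an adjusted p.

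Alternatives were leaving out each array, a replicate block, only the 2 groups compared, 1 probe set per gene, every probe set on its own, moderated variance, array medians set to 0, array weights and leaving out the 3 arrays high in 18S. Leaving out the 2 arrays of widest scores was chosen after seeing the data.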

Additional observations from a re-analysis of the deposited data

How the results depend on the processing

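Followed through 17 alternatives each were 22 differences: those of members named by the rule above, and Stat3, Aim2, Uba7, Cd207 and Cd74 in LA. All 22 kept their direction. Other differences in the text, some printed with an adjusted p, were not followed in this way. For the 7 that were called, 44 of 119 values kept the call and 75 lost it. For the 15 that were not, 251 of 255 values stayed without a call and 4 gained one. Over all genes 223 were called in LA against LC, but 0 with moderated variance, 1 with the replicate block and 1 without the 3 arrays high in 18S, and 306 without L84 1 or L84 2. Without each array in turn the members called ranged from 0 to 1 in L84 against LC, from 0 to 2 in LA against LC and from 0 to 1 in the test over all genotypes, and the median differences were 0.0621 to 0.595 in L60, 0.771 to 1.16 in L84 and 1.18 to 1.74 in LA. Without L60 2 the L60 median was 0.0621, and without LC 1 the LA median was 1.74. In L84 against LC, in LA against LC and over all genotypes the members called were 0, 0 and 0 with moderated variance, without the 3 arrays high in 18S, and without the 2 arrays of widest scores, an alternative chosen after seeing the data. They were 0, 2 and 0 with array weights, and 0 in both line comparisons with only the arrays of the 2 groups compared. Over all genotypes the count was 0 with every probe set on its own and 0 with array medians set to 0. That setting moved all differences from LC by -0.132 in LA. Without the arrays high in 18S the medians were 0.699, 1.35 and 1.74 in L60, L84 and LA. These fits have fewer residual degrees of freedom where arrays are left out; otherwise the cause was not tested. With the replicate number as a block, 0, 0 and 0 members were called. Deviations of same-numbered arrays correlated at -0.0833 to 0.345 over genes, lowest for L60 with LA. Of 8 arrays checked, 8 correlated best with an array of the same number. The first arrays also shared low Xist, and the 3 arrays high in 18S were all numbered 1. The main model did not take the numbers to pair the arrays, and what same-numbered arrays may share was not tested. In lines of 2 arrays the deviations mirror each other, so that number 2 repeats the correlations of number 1.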
